A study of Mus musculus with 18 samples.

Results

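The Th2 genes described here are 10 genes of the T helper 2 programme: the transcription factors Gata3, Nfil3 and Maf, the secreted products Areg, Il4, Il5 and Il13, and the receptors Il1rl1, Ccr4 and Il4ra. They were chosen by name, with earlier results of these data known, so shares over all features set beside them below are a description and not a test. Taking every probe whose RefSeq accession belongs to one of them gave 15 probes for 10 of the 17178 named genes on the array. All 10 passed the filter for dim probes. T helper 2 cells are the CD4 T cells that make interleukins 4, 5 and 13. GATA3 is the factor that defines them, interleukin 4 acts through its receptor and STAT6 to maintain them, and the interleukin 33 receptor ST2 marks many of them in tissues. Naive CD4 T cells hold little cytokine message. Knock-in mice with the Y136F form of LAT are known for expanding T cells of Th2 type.

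RNA of naive CD4 T cells (CD4+ CD44low, sorted from spleen of C57BL/6 mice) was measured in 18 mice, 1 per single-colour Agilent array and 3 per group. LAT is the adaptor that passes the signal of the T cell receptor on, and the tyrosine changed to phenylalanine in Y136F is where phospholipase C-gamma 1 binds. LAT KO mice carried ERCre and LAT f/- (1 floxed allele over 1 null allele), Y136F mice carried ERCre and LAT f/m (a floxed allele and an allele with the Y136F change), and WT mice were LAT f/- as well, without ERCre by the sample titles and with it by the series text. Each genotype was sampled after tamoxifen for 4 weeks or 1 week, and tamoxifen was thus given to the controls too. ERCre is a Cre recombinase that tamoxifen activates, so the floxed allele is lost from the cells in which it acts, and the cell types it acts in were not given in the sources used here. WT cells had functional LAT from the floxed allele only.

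The 75th percentile of the array signal lay between 1124 and 1896 intensity units, and spots well above background made up 84.2% to 97.9%. LAT KO replicate 3 of 1 week had 7888 outlier spots against 187 to 952 on the others, and its Areg spot and its brightest-probe spots of Il1rl1 and Ccr4 were among those left out. Lat itself had a scaled log2 signal of 2.34 to 3.16 in LAT KO, 3.86 to 4.43 in Y136F and 3.29 to 3.85 in WT cells at 4 weeks, and of 2.32 to 3.19 in LAT KO, 4.17 to 4.32 in Y136F and 2.75 to 3.47 in WT cells at 1 week. The LAT KO and WT ranges of Lat did not overlap at 4 weeks and did at 1 week, and whether the Lat probe lies in the deleted part was not given in the sources used here. The labels give every Y136F mouse as female and every 4-week LAT KO and WT mouse as male, and each 1-week LAT KO and WT group held 2 females and 1 male. Xist and Ddx3y went against the label in the array labelled LAT KO replicate 1 of 1 week (Xist at -9.30, Ddx3y at -0.23) and in the one labelled LAT KO replicate 2 of 4 weeks (Xist at 0.21, Ddx3y at -8.92). Results that involve LAT KO cells follow the labels and are also given without these arrays.

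All levels below are scaled log2 signals, which is log2 of the processed spot signal minus log2 of the array's 75th percentile, so that 0 is the 75th percentile and a step of 1 is a doubling. Levels of different probes cannot be compared with each other. A gene is called where limma gave an adjusted p under 0.05 over all features of the comparison, and "higher" and "lower" are used of called genes or of stated values. Array RNA cannot tell a larger share of cells with a transcript from more transcript per cell. Nothing in the labels links replicate numbers across groups.

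After 4 weeks of tamoxifen Y136F cells stood apart from all other groups in most of these genes. For 7 of the 10 genes (Gata3, Nfil3, Areg, Maf, Il4, Il1rl1 and Ccr4) every 4-week Y136F array lay above every other array used, as in 3.24% of all features. For Ccr4 this was only just so, at -0.4483 against -0.4486 in LAT KO replicate 1 of 1 week, and for Areg it does not hold with the left-out outlier spot. Against WT at 4 weeks all 10 differences were positive with a median of 1.01, while the median over all 31563 features was -0.19. Of the 10 genes 3 were called higher, Gata3, Nfil3 and Areg, and none lower, where 2.41% of all features were called higher. In 9 of 10 genes the 3 Y136F arrays lay above all 3 WT arrays, as did those of 9.24% of all features. The exception was Il13.

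**Figure D1:**
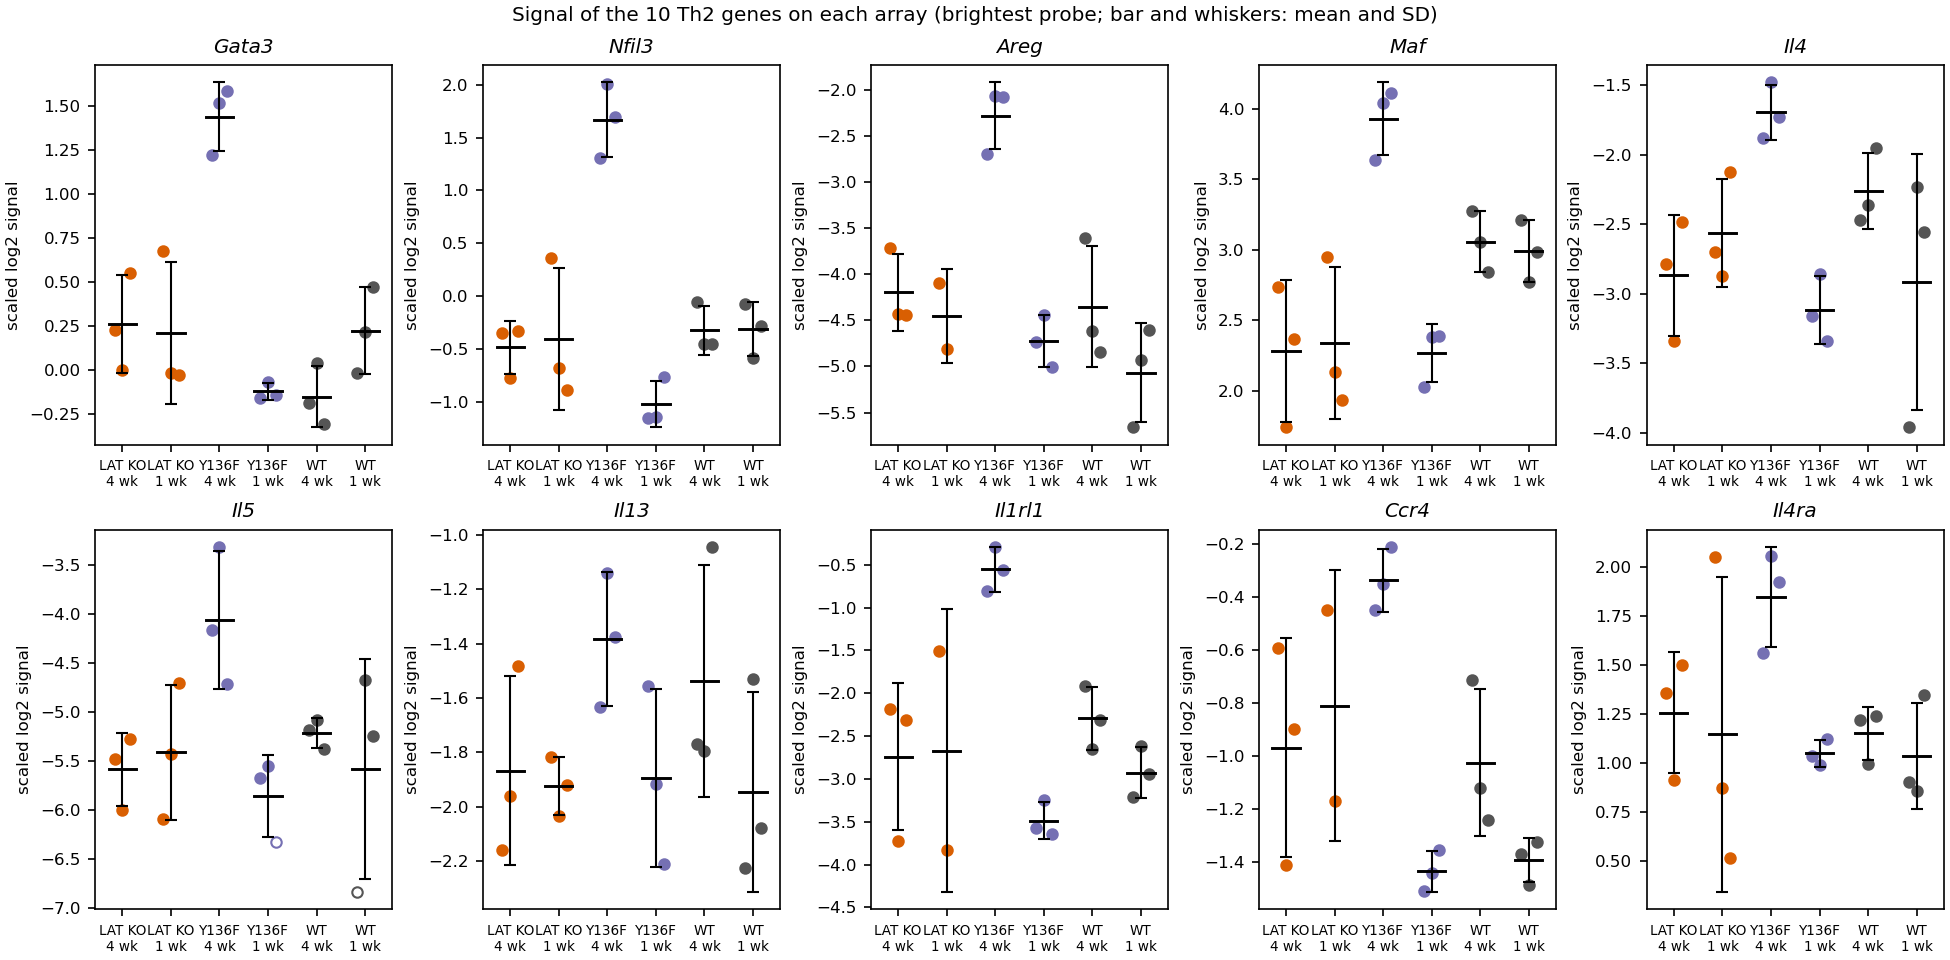
Scaled log2 signal (y axis) of the brightest probe of each of the 10 genes on each of the 18 arrays, by genotype and weeks of tamoxifen (x axis). Filled points are spots well above background, open points are not, and bars with whiskers are the mean and SD of the group. The 4-week Y136F points lie highest in 7 panels, while in the Il13 panel the groups overlap.

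The promoters of 9 of the 10 genes were read from RefSeq (GRCm38.p6), 11 windows of 250 bases before and 50 after a start site, and searched for GATA letters, which is GATA with A or T before it and A or G after it, on either strand. Maf had no entry. Such letters occur in 29.8% of all 32851 promoter windows and in 7 of these 11. The windows of Gata3, Nfil3 and Areg, the genes called against WT, are shown with the Il13 window. Il1rl1 is shown by its window with more GATA letters, and Il4 by its window with more NFAT letters, which are defined below. The other windows are not shown. Those shown read 5′ to 3′ in the direction of the gene, with GATA letters in capitals.
Gata3, chr2:9878551-9878850, - strand: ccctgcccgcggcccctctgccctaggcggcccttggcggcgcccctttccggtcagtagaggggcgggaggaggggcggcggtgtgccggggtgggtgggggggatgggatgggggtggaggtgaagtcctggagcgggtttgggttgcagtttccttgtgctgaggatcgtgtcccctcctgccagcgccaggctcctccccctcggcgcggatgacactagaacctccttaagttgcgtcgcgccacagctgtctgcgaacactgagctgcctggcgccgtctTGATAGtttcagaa
Nfil3, chr13:52980990-52981289, - strand: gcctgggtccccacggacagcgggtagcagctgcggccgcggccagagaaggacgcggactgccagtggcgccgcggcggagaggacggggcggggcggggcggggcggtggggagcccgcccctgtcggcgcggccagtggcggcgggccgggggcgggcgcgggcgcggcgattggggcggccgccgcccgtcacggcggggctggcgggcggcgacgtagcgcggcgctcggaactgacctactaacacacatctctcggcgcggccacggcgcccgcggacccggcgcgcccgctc
Areg, chr5:91139349-91139648, + strand: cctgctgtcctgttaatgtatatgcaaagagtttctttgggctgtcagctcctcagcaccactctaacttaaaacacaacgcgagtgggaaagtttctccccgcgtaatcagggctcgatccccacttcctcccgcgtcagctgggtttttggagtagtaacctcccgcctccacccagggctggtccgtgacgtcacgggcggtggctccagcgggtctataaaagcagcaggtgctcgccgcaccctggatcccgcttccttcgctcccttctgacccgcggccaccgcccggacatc
Il1rl1, chr1:40429320-40429619, + strand: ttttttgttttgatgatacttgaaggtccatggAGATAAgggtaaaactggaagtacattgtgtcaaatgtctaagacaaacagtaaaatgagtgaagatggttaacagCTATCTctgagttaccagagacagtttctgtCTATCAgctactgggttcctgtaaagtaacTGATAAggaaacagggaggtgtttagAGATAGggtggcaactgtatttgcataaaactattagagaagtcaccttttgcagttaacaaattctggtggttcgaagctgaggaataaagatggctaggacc
Il4, chr11:53618616-53618915, - strand: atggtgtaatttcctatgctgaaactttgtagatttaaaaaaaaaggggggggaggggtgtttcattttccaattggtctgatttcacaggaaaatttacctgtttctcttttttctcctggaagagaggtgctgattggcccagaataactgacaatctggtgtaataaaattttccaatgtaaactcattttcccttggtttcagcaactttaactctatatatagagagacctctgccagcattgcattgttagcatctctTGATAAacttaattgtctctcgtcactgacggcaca
Il13, chr11:53634653-53634952, - strand: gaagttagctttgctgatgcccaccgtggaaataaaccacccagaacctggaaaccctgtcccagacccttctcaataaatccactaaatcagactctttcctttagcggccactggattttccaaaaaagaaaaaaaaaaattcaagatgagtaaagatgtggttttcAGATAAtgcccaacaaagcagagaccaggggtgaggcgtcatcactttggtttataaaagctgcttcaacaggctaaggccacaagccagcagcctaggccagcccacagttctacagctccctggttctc

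Nfil3 and Areg held no GATA letters in this window and Gata3 had 1 match, 36 bases past its start site. The Il1rl1 window shown had 5 separate matches, at -217, -141, -110, -80 and -54 bases from the start site, a number reached by 0.0457% of all windows, while the other Il1rl1 window had 1. NFAT letters (GGAAAA or TGGAAA, either strand, overlapping matches counted once) occur in 35.1% of all windows and in 5 of these 11. The Il4 window shown had 4 such runs, a number that 0.234% of windows reach, and the Il13 window had 3, which 1.5% of windows reach. The letters are a description of the windows and show no binding.

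GATA3 is the transcription factor that T helper 2 differentiation depends on. At 4 weeks Gata3 stood at 0.23, -0.0006 and 0.55 in LAT KO cells, at 1.22, 1.52 and 1.58 in Y136F cells and at -0.19, 0.04 and -0.31 in WT cells. At 1 week it stood at 0.68, -0.02 and -0.03 in LAT KO cells, at -0.16, -0.07 and -0.14 in Y136F cells and at -0.02, 0.22 and 0.47 in WT cells. Only the 4-week Y136F mice were high, with no overlap with any other array. The difference from WT at 4 weeks was 1.59 ± 0.20 (SE, n = 3 mice each), a 3.01-fold higher signal (limma adjusted p = 0.0002099). Against Y136F cells of 1 week it was 1.56 ± 0.20 (limma adjusted p = 0.000155). At 1 week the Y136F minus WT difference was -0.35 with a 95% interval of -0.76 to 0.07 and was not called.

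NFIL3 is a basic leucine zipper factor that is induced by interleukin 4 and acts on the T helper 2 cytokine genes. Its brightest probe read -0.35, -0.77 and -0.33 in LAT KO cells, 1.31, 2.01 and 1.69 in Y136F cells and -0.06, -0.45 and -0.46 in WT cells at 4 weeks. At 1 week the values were 0.36, -0.68 and -0.89 in LAT KO cells, -1.15, -1.14 and -0.76 in Y136F cells and -0.07, -0.58 and -0.28 in WT cells. The Y136F mice thus held the highest arrays at 4 weeks and the lowest group mean at 1 week, -1.02 ± 0.22 (SD, n = 3). The 4-week difference from WT was 1.99 ± 0.27, a 3.97-fold higher signal (limma adjusted p = 0.0004316), and the difference between the Y136F times was 2.69 ± 0.27, or 6.44-fold (limma adjusted p = 1.994e-05). The second Nfil3 probe gave 1.77 ± 0.26 against WT (limma adjusted p = 0.0007755, all probes as features), and both probes followed each other across the 18 arrays with a Pearson r of 0.98.

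MAF (c-Maf) drives transcription of Il4 in T helper 2 cells. Its brightest probe stood at 2.73, 1.74 and 2.37 in LAT KO cells, 3.63, 4.04 and 4.11 in Y136F cells and 3.28, 3.06 and 2.84 in WT cells at 4 weeks. At 1 week it stood at 2.95, 2.13 and 1.93 in LAT KO cells, 2.03, 2.38 and 2.39 in Y136F cells and 3.21, 2.77 and 2.98 in WT cells. The 4-week Y136F arrays did not overlap with the WT arrays, but the difference of 0.87 ± 0.26 was not called (limma adjusted p = 0.08186). At 1 week the Y136F arrays lay below all WT arrays, a difference of -0.72 ± 0.26 that was not called either (limma adjusted p = 0.6094). Between the times in Y136F cells Maf was higher at 4 weeks by 1.66 ± 0.26, or 3.16-fold (limma adjusted p = 0.0007191), and its second probe by 1.92 ± 0.36 (limma adjusted p = 0.002801).

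Amphiregulin, the product of Areg, is a ligand of the epidermal growth factor receptor that T helper 2 cells secrete. Areg stood at -3.71, -4.43 and -4.45 in LAT KO cells, -2.69, -2.06 and -2.08 in Y136F cells and -3.61, -4.61 and -4.84 in WT cells at 4 weeks. At 1 week it stood at -4.10 and -4.81 in the 2 LAT KO arrays used, -4.73, -4.44 and -5.002 in Y136F cells and -5.66, -4.93 and -4.61 in WT cells. The 4-week Y136F arrays were again above all arrays used. The left-out outlier spot of LAT KO replicate 3 of 1 week read -2.06, as high as the 4-week Y136F arrays. Areg was 4.21-fold higher in Y136F than in WT cells at 4 weeks (difference 2.07 ± 0.38, limma adjusted p = 0.004753) and 5.45-fold higher at 4 weeks than at 1 week in Y136F cells (2.45 ± 0.38, limma adjusted p = 0.0007986).

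Interleukins 4, 5 and 13 are the signature cytokines, encoded by neighbouring genes that share control elements. Il4 stood at -2.78, -3.34 and -2.48 in LAT KO cells, -1.88, -1.48 and -1.73 in Y136F cells and -2.47, -2.36 and -1.95 in WT cells at 4 weeks. The 1-week values were -2.70, -2.87 and -2.13 in LAT KO cells, -3.16, -2.86 and -3.34 in Y136F cells and -3.96, -2.23 and -2.56 in WT cells. The Y136F arrays of 4 weeks were just above the highest WT array, and the difference of 0.57 ± 0.35 was not called (95% interval -0.18 to 1.31, limma adjusted p = 0.4409). Within Y136F cells Il4 was higher at 4 weeks than at 1 week by 1.42 ± 0.35, or 2.68-fold (limma adjusted p = 0.01914).

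Interleukin 5 drives the growth of eosinophils, and its gene was well above background on 16 of 18 arrays, the others being Y136F replicate 3 and WT replicate 1 of 1 week. It stood at -5.48, -5.99 and -5.27 in LAT KO cells, -4.16, -3.31 and -4.71 in Y136F cells and -5.18, -5.08 and -5.38 in WT cells at 4 weeks. At 1 week the values were -6.09, -5.43 and -4.71 in LAT KO cells, -5.67, -5.55 and -6.33 in Y136F cells and -6.83, -4.67 and -5.24 in WT cells. The spread was wide in the 1-week LAT KO and WT groups and in the 4-week Y136F group (SD 0.69, 1.12 and 0.70). The highest array outside the 4-week Y136F group, WT replicate 2 of 1 week, lay above the lowest 4-week Y136F array. Il5 was called between the Y136F times at 1.79 ± 0.52 (limma adjusted p = 0.0414) but not against WT at 4 weeks, at 1.15 ± 0.52 (limma adjusted p = 0.2852).

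Interleukin 13 acts on mucus and smooth muscle in tissues, and its gene showed no separation of the groups. Il13 stood at -2.16, -1.96 and -1.48 in LAT KO cells, -1.63, -1.14 and -1.38 in Y136F cells and -1.77, -1.80 and -1.04 in WT cells at 4 weeks. The group means at 1 week were -1.92 ± 0.11 in LAT KO, -1.89 ± 0.33 in Y136F and -1.94 ± 0.37 in WT cells (SD, n = 3 each). The Y136F minus WT difference at 4 weeks was 0.15 with a 95% interval of -0.37 to 0.68, and the difference between the Y136F times was 0.51 with an interval of -0.01 to 1.03; neither was called (limma adjusted p = 0.7658 and 0.2167).

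Il1rl1 encodes ST2, the receptor for the alarmin interleukin 33. Its brightest probe stood at -2.18, -3.72 and -2.31 in LAT KO cells, -0.81, -0.29 and -0.56 in Y136F cells and -1.91, -2.65 and -2.31 in WT cells at 4 weeks. At 1 week its values were -1.503 and -3.83 in the 2 LAT KO arrays used, -3.57, -3.24 and -3.65 in Y136F cells and -3.21, -2.62 and -2.95 in WT cells. The 4-week Y136F arrays were the highest and the 1-week Y136F arrays were the lowest apart from LAT KO replicates 2 of both times. The difference between the Y136F times was the largest of the 10 genes at 2.93 ± 0.47, or 7.64-fold (limma adjusted p = 0.0009523).

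Against WT at 4 weeks Il1rl1 lay at the threshold. The brightest probe differed by 1.74 ± 0.47 and missed it with a limma adjusted p of 0.05215. With every probe as its own feature the same probe had a limma adjusted p of 0.04849, and the probe of another RefSeq transcript was higher by 2.07 ± 0.47 (limma adjusted p = 0.01665). The third probe, well above background on 13 of 18 arrays, differed by 1.54 ± 0.62 and was not called (limma adjusted p = 0.2157). The brightest probe was called without any one of 5 arrays of other groups, the 3 LAT KO arrays of 1 week, LAT KO replicate 2 of 4 weeks and WT replicate 1 of 1 week (limma adjusted p between 0.004945 and 0.04985). Between the Y136F times the brightest probe and that of the other transcript were called, at 2.93 and 3.52. The third probe read 3.16 there and was called too, but on 2 of the 3 Y136F arrays of 1 week it was not well above background, so the size of its difference is uncertain. The probes followed each other across arrays with a Pearson r of 0.88 to 0.99.

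CCR4 is a chemokine receptor of T helper 2 and skin-homing T cells. Ccr4 stood at -0.59, -1.41 and -0.90 in LAT KO cells, -0.45, -0.35 and -0.21 in Y136F cells and -0.71, -1.12 and -1.24 in WT cells at 4 weeks. After 1 week it was at -0.45 and -1.17 in the 2 LAT KO arrays used, -1.51, -1.44 and -1.36 in Y136F cells and -1.37, -1.49 and -1.32 in WT cells. The Y136F and WT arrays of 4 weeks did not overlap, and the difference of 0.69 ± 0.21 was not called (limma adjusted p = 0.1061). Ccr4 was higher at 4 weeks than at 1 week in Y136F cells by 1.098 ± 0.21, or 2.14-fold (limma adjusted p = 0.004544), as was its second probe by 1.35 ± 0.32 (limma adjusted p = 0.01392).

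Il4ra encodes the chain that binds interleukin 4 in both forms of its receptor. It stood at 1.36, 0.91 and 1.502 in LAT KO cells, 1.56, 2.06 and 1.93 in Y136F cells and 1.22, 0.99 and 1.24 in WT cells at 4 weeks. The 1-week arrays read 2.05, 0.87 and 0.52 in LAT KO cells, 1.04, 0.99 and 1.12 in Y136F cells and 0.91, 0.86 and 1.35 in WT cells. LAT KO replicate 1 of 1 week was as high as the 4-week Y136F arrays. Il4ra was not called in any comparison of the main fit. Between the Y136F times it was called under 5 of 35 alternatives, among them without LAT KO replicate 1 or 3 of 1 week (limma adjusted p = 0.008466 and 0.04778). It was called under 4 of 34 in Y136F against WT at 4 weeks and under 1 of 34 in the change of Y136F minus WT with time. Its Y136F minus WT difference at 4 weeks was 0.70 ± 0.28 and the difference between the Y136F times was 0.80 ± 0.28 (limma adjusted p = 0.2284 and 0.08976).

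The order of the group means was led by the 4-week Y136F group for all 10 genes, and its arrays did not overlap with those of the next group in 9, all but Il13, as in 4.27% of all features. The 1-week Y136F group had the lowest mean for Nfil3, Maf, Il4, Il5, Il1rl1 and Ccr4. Of the 40 other pairs of neighbours in these orders, 37 had arrays that overlapped and 3 did not, where 3.11% of such pairs over all features did not. No comparison of LAT KO with WT called a gene. LAT KO against WT gave 0 of 10 at 4 weeks, with a median difference of -0.25 beside -0.17 over all features. It gave 0 of 10 at 1 week, with a median of 0.14 beside -0.04. Of all features 0.095% and 0.019% were called. In those comparisons 2 genes each had an unadjusted limma p under 0.05. So did 3374 of 31582 features at 4 weeks and 918 of 31571 at 1 week. At 4 weeks the 2 genes were Maf, lower in LAT KO by value at -0.78 ± 0.26, and Gata3 at 0.41 ± 0.20 (limma adjusted p = 0.3489 and 0.4667). At 1 week they were Maf at -0.65 ± 0.26 and Ccr4 at 0.58 ± 0.24 (limma adjusted p = 0.9999 for both). Without the 2 LAT KO arrays that went against their labels 0 of 10 were called at either time.

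Y136F against WT at 1 week also called 0 of 10 genes, where 0.0158% of all features were called. Of the 10 differences 3 were positive, where 10278 of 31576 were over all features, and the median was -0.24 beside -0.13. Unadjusted limma p was under 0.05 for 2 genes, Nfil3 at -0.71 ± 0.27 and Maf at -0.72 ± 0.26, and for 1964 of 31576 features. LAT KO against Y136F at 1 week called 0 of 10, with 0% of features called. Unadjusted limma p was under 0.05 there for 2 genes, Nfil3 at 0.62 ± 0.27 and Ccr4 at 0.63 ± 0.24, and for 1802 of 31555 features.

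LAT KO against Y136F at 4 weeks asks whether loss of LAT and loss of its phospholipase site had the same effect. By the labels it also set males against females, so genotype and labelled sex cannot be told apart within it. Of the 10 genes 5 were lower in LAT KO cells, where 2.3% of all features were called lower, and all 10 differences were negative with a median of -1.35 beside 0.03 over all features. The called genes were Il1rl1 at -2.19 ± 0.47, Nfil3 at -2.15 ± 0.27, Areg at -1.92 ± 0.38, Maf at -1.65 ± 0.26 and Gata3 at -1.18 ± 0.20 (limma adjusted p between 0.0002455 for Nfil3 and 0.01277 for Il1rl1). Il4 at -1.17 ± 0.35 and Il5 at -1.52 ± 0.52 were not called (limma adjusted p = 0.08894 and 0.1478), but Il4 was called under 6 alternatives and Il5 under 3, as given in the closing part on processing. Without LAT KO replicate 2, whose sex-linked genes went against its label, 3 genes were called, with Areg at -1.80 and Il1rl1 at -1.69 (limma adjusted p = 0.05263 and 0.09724). Without Y136F replicate 2, 4 were called, with Il1rl1 at -2.05 (limma adjusted p = 0.06581). Without both LAT KO arrays that went against their labels 5 were called, and with outlier spots kept 3. With slide as a fixed term 4 were called, with Il1rl1 at -1.97 (limma adjusted p = 0.07168).

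**Figure D2:**
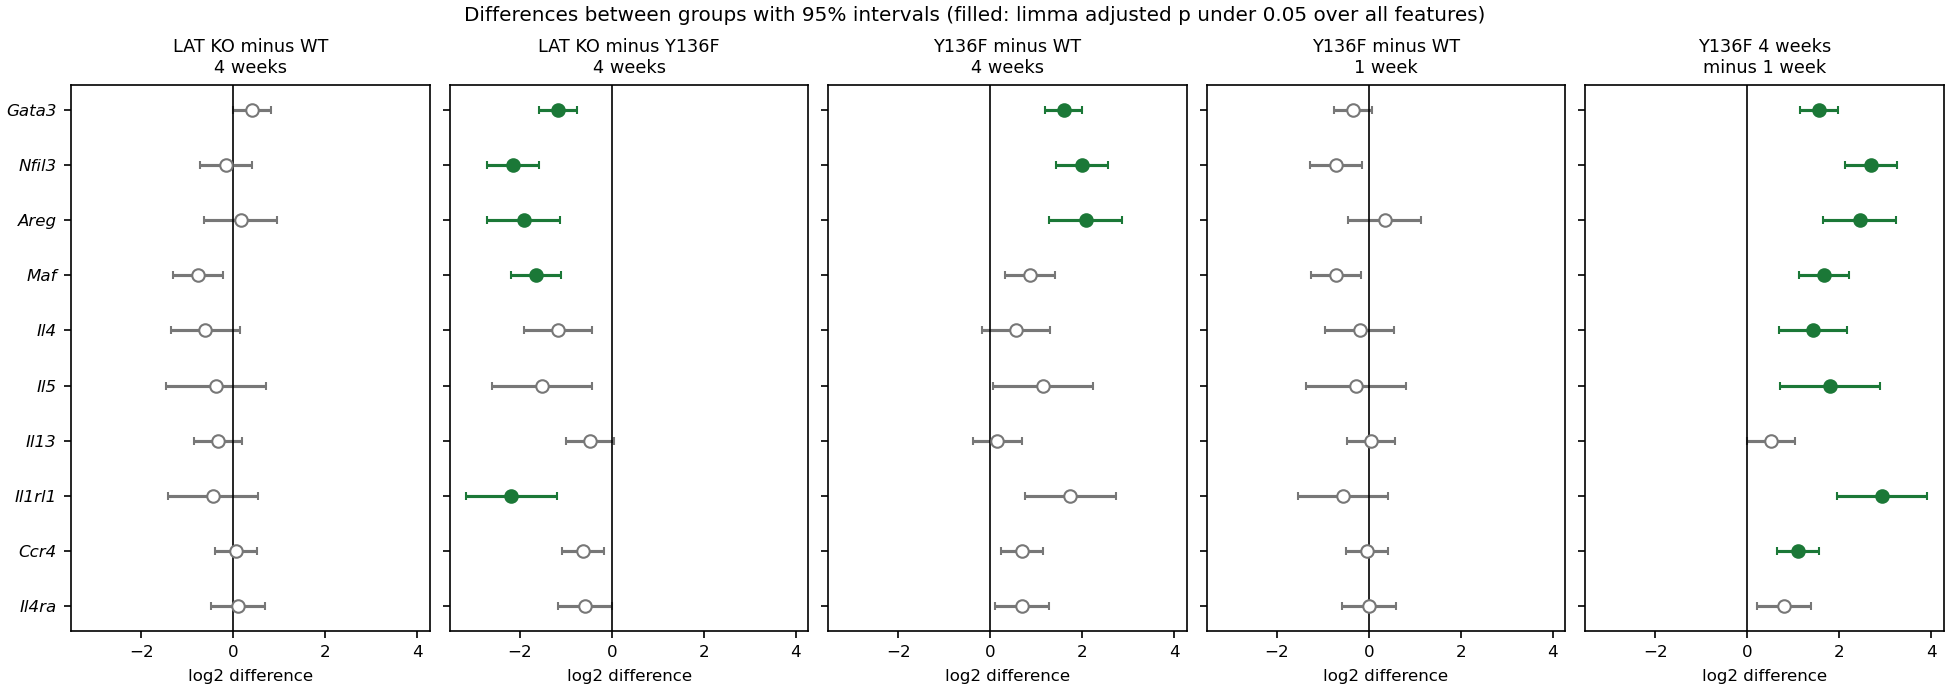
Log2 difference between groups (x axis) with its 95% interval for each of the 10 genes (y axis) in 5 comparisons, filled where the limma adjusted p was under 0.05. Gata3, Nfil3 and Areg are called in the 3 comparisons that set 4-week Y136F cells against another group, and no gene is called in the LAT KO minus WT or 1-week panels.

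Between the Y136F times, a comparison within females, 8 of 10 genes were higher at 4 weeks than at 1 week, where 4.21% of all features were called higher. The median difference was 1.61, beside 0.14 over all features, and in 9 of 10 genes the arrays did not overlap, as in 22.1% of all features. Il13 and Il4ra were not called. LAT KO cells at 4 weeks against 1 week gave 0 of 10 genes with a median of -0.06, and WT cells gave 0 of 10 with a median of 0.37, with 0% of features called in each and no gene of the 10 at an unadjusted limma p under 0.05. Over all features the medians were 0.07 and 0.21, and 181 of 31564 and 5915 of 31569 had such a p. The LAT KO values follow the labels, though an array of each LAT KO time went against its label. The call of Il5 was lost without any one of the 6 Y136F arrays except replicate 3 of 4 weeks, the 3 WT arrays of 4 weeks and LAT KO replicates 1 and 3 of 4 weeks, and that of Il4 without Y136F replicate 1 or 3 of 1 week or replicate 2 of 4 weeks (limma adjusted p between 0.05105 and 0.2011). With slide as a fixed term 4 genes were called, Gata3, Nfil3, Areg and Maf, and on the 1 slide with an array of each time all 10 differences were positive, Il13 the smallest at 0.77 and Nfil3 the largest at 3.15.

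The Y136F minus WT difference itself was larger at 4 weeks than at 1 week for 2 of the 10 genes, where 0.4% of all features were called so. Gata3 differed by 1.94 ± 0.28 between the times and Nfil3 by 2.70 ± 0.38 (limma adjusted p = 0.00351 and 0.003129). The other values were positive too, from 0.10 for Il13 to 2.30 for Il1rl1, and were not called. Without LAT KO replicate 1 of 1 week 4 genes were called, Maf and Il1rl1 being added (limma adjusted p = 0.01121 and 0.02009). The count over all features in that setting is not given here. For LAT KO minus WT 0 of 10 genes were called, with 0% of all features, and the median was -0.40 beside -0.10 over all features. These comparisons share arrays with those above.

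The Y136F against WT comparison at 4 weeks set females against males by the labels. With labelled sex as a term, estimated from the 1-week groups alone, Gata3 differed by 1.60 ± 0.29 (limma adjusted p = 0.03075), Nfil3 by 1.64 ± 0.39 (limma adjusted p = 0.1065) and Areg by 2.77 ± 0.66 (limma adjusted p = 0.1205), so 1 gene was called. The term rests on the 1-week LAT KO and WT mice, and LAT KO replicate 1 went against its label there. For Areg, with the spot of LAT KO replicate 3 left out, it rests on the WT mice alone. How far the term corrects for sex is therefore uncertain. The same term left 1 gene called in LAT KO against Y136F at 4 weeks, Nfil3 at -1.81 ± 0.39 (limma adjusted p = 0.04796). It left both calls in the change of Y136F minus WT, and it cannot bear on the comparison between the Y136F times, in which all mice are labelled female. On the 3 slides that held an array of each group, the Y136F minus WT difference at 4 weeks was 1.41 to 1.89 for Gata3, 1.36 to 2.46 for Nfil3 and 0.91 to 2.76 for Areg. With slide as a fixed term these 3 genes were again called. LAT KO replicate 1 of 1 week is in neither group but enters the estimate of the spread. Without it 6 genes were called, and without LAT KO replicate 2 of 4 weeks 5. Il1rl1, Maf and, in the first case, Il4ra were added. Without both arrays that went against their labels 7 were called. Counts over all features in these settings are not given here, so whether calls rose over all features too is not shown.

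**Figure D3:**
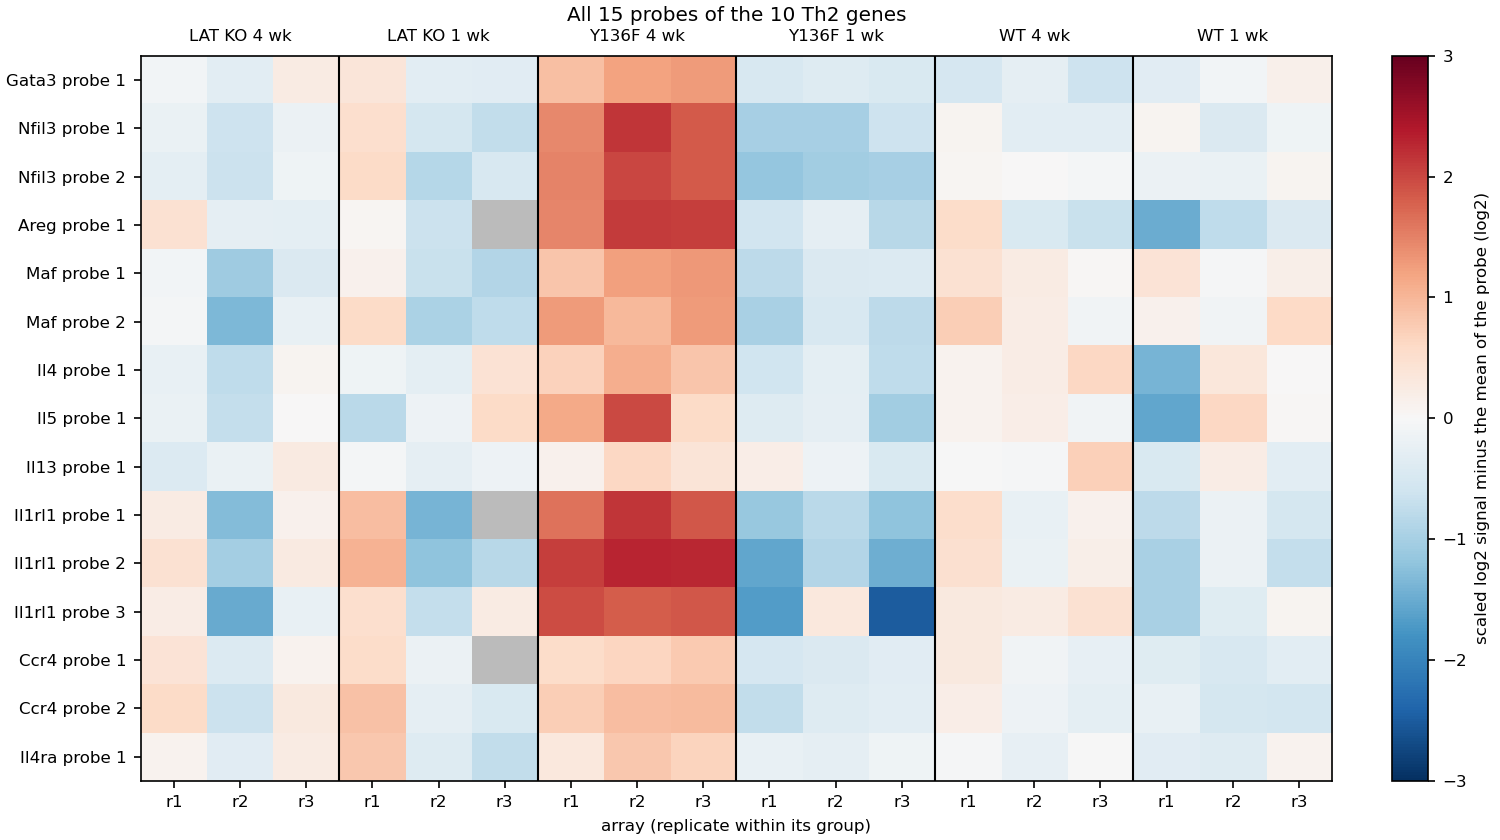
All 15 probes of the 10 genes (rows, numbered by brightness within a gene) on the 18 arrays (columns, by group and replicate), coloured by the scaled log2 signal minus the mean of the probe, with left-out outlier spots in grey. Probes of one gene share their pattern, the 4-week Y136F columns are highest in most rows, and LAT KO replicate 1 of 1 week is raised in the Nfil3, Il1rl1, Ccr4 and Il4ra rows.

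Of 40 other measured genes of the T helper 2 pathway (43 listed), 3 were higher in Y136F than in WT cells at 4 weeks and none lower, where 2.41% and 0.824% of all features were called, and their median was -0.08. They were Nfatc1, a calcium-dependent factor, at 0.89 ± 0.19, Jak3, the kinase of the common gamma chain, at 0.71 ± 0.15, and Il18rap, a chain of the interleukin 18 receptor, at 1.26 ± 0.29 (limma adjusted p = 0.01283, 0.01286 and 0.02135). The other chain of that receptor, Il18r1, was placed in the T helper 1 list. Between the Y136F times 8 of the 40 pathway genes were higher at 4 weeks and 1, Jak1, lower, where 4.21% and 3.39% of all features were called. The higher ones included Nfatc1 at 1.03, the T helper 2 chemokine receptor Ccr8 at 1.27 and the co-stimulatory receptor Tnfrsf4 (OX40) at 1.15 (limma adjusted p = 0.002875, 0.00918 and 0.003566). LAT KO against Y136F at 4 weeks gave 4 lower genes, Tnfrsf4 at -1.33, Batf at -1.25, Nfatc1 at -0.88 and Ccr8 at -1.29, and none higher, where 2.3% of all features were called lower.

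Genes of other helper lineages changed in the same 4-week Y136F cells. Of 18 T helper 1 genes, 6 were higher than in WT and 2 lower, where 2.41% and 0.824% of all features were called, shares that also stand beside the 2 lists that follow. Ifng, the lineage cytokine, was higher by 2.01 ± 0.37 and Eomes by 2.62 ± 0.38 (limma adjusted p = 0.004892 and 0.000884), and those called higher included Cxcr3 at 1.68, Il12rb1 at 1.53 and Stat4 at 0.75. Ly6c1 was lower at -0.79 ± 0.20 and the interferon gamma receptor chain Ifngr2 at -0.69 ± 0.18 (limma adjusted p = 0.0417 and 0.049). Of 13 T helper 17 genes 2 were higher, Il1r1 at 2.18 and Rora at 1.75, and Il6ra was lower at -0.63 (limma adjusted p = 0.002457, 0.001474 and 0.01972). Of 11 follicular helper genes 2 were higher, Pdcd1, which encodes PD-1, at 2.0004 and Bcl6 at 0.94 (limma adjusted p = 0.006979 and 0.0188).

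**Figure D4:**
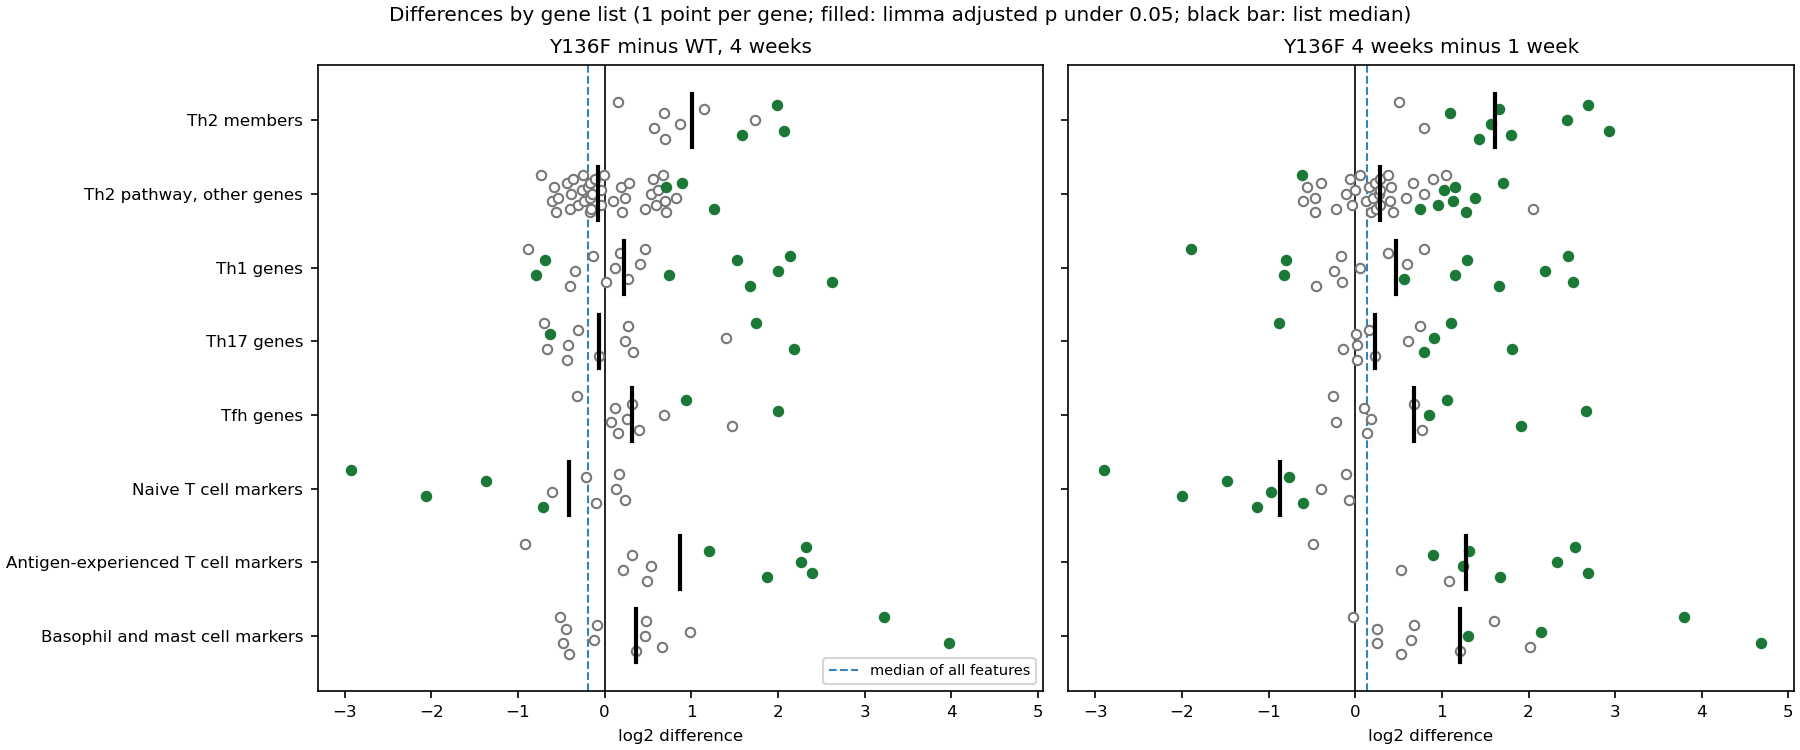
Log2 difference (x axis) of each measured gene of 8 lists (rows) for Y136F minus WT at 4 weeks (left) and Y136F at 4 weeks minus 1 week (right), filled where the limma adjusted p was under 0.05, with list medians as black bars and the median of all features dashed. The Th2 genes have medians of 1.01 and 1.61, the naive T cell markers lie below 0 by median in both panels, and Th1 genes hold called points on both sides.

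The sort took CD44low cells. Of 10 markers of naive T cells 4 were lower in Y136F than in WT cells at 4 weeks, where 0.824% of all features were called lower, and none higher, with Dapl1 at -2.93 ± 0.23 and the lymph node homing receptor Ccr7 at -1.36 ± 0.16 (limma adjusted p = 2.597e-06 and 0.0001151). Igfbp4 was called too, at -2.06. Their summed signal, in units of the 75th percentile, was 95.8 to 118.9 in LAT KO, 67.6 to 77.3 in Y136F and 96.3 to 98.8 in WT cells. Of 10 markers of antigen-experienced T cells 5 were higher, where 2.41% of all features were, and none lower, with Itgb1 at 2.40 ± 0.31 and Id2 at 1.88 ± 0.31 (limma adjusted p = 0.0003761 and 0.002102). Cxcr6 at 2.26, S100a6 at 2.33 and Prdm1, which encodes BLIMP-1, at 1.20 were called too. Cd44 itself stood at 1.01 to 1.395 in Y136F and 0.32 to 1.21 in WT cells. The summed signal of the 10 was 94.2 to 131.1 in LAT KO, 155.6 to 186.8 in Y136F and 99.7 to 157.6 in WT cells at 4 weeks, and 99.2 to 122.6 in Y136F cells at 1 week. Between the Y136F times 7 of the 10 naive markers were lower at 4 weeks with a median of -0.87, where 3.39% of all features were called lower, and 7 of the 10 antigen-experienced markers were higher with a median of 1.28, where 4.21% were called higher. LAT KO against Y136F at 4 weeks gave 4 naive markers higher and 4 antigen-experienced markers lower. Of all 31579 features 321 were called higher and 725 lower there. The part of this in the Th2 gene results was not tested.

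Basophils and mast cells also express Il4, Il13 and Il1rl1. Of 13 markers of these cells 2 were higher in Y136F than in WT cells at 4 weeks, where 2.41% of all features were, the histamine enzyme Hdc at 3.23 ± 0.22 and the mast cell protease gene Cpa3 at 3.98 ± 0.82 (limma adjusted p = 8.134e-07 and 0.009702). The summed signal of the 13 markers was 7.005 to 8.05 in LAT KO, 9.53 to 13.7 in Y136F and 9.04 to 12.8 in WT cells at 4 weeks and 6.38 to 7.34 in Y136F cells at 1 week, and 12 to 13 markers were well above background on each 4-week Y136F and WT array. The basophil protease gene Mcpt8 stood at -2.76 to -1.78 in Y136F and -2.0015 to -1.47 in WT cells, and the chain Fcer1a of the IgE receptor at -1.34 to -0.42 in Y136F and -0.87 to -0.33 in WT cells. Between the Y136F times 4 of the 13 markers were higher at 4 weeks, Hdc, Cpa3, Mcpt4 and Cma1, where 4.21% of all features were, and the median of the list was 1.21 with 12 of 13 differences positive. Of the same markers 3, Hdc, Cpa3 and Mcpt4, were lower in LAT KO than in Y136F cells of 4 weeks, where 2.3% of all features were called lower. The list median there was -0.44 beside 0.03 over all features. B cell, eosinophil, and NK and CD8 T cell markers gave no called gene in Y136F against WT at 4 weeks, and 1 of 9 myeloid markers, S100a8, was higher at 2.99 ± 0.76 (limma adjusted p = 0.03789). Between the Y136F times 1 of 6 eosinophil markers (Prg2, with a list median of 1.18), 2 of 9 myeloid markers (S100a8 and S100a9, median 0.37) and 1 of 6 NK and CD8 T cell markers (Klrb1c, median -0.14) were higher at 4 weeks, and no B cell marker was called. The summed signal of the eosinophil markers was 1.15 to 1.73 in Y136F cells at 4 weeks and 1.01 to 1.11 at 1 week, and that of the myeloid markers was 1.26 to 2.46 at 4 weeks and 1.15 to 1.33 at 1 week. All 7 measured CD4 T cell markers were well above background on all arrays, and 1 of them, Cd5, was higher in Y136F than in WT cells at 4 weeks at 0.65 ± 0.16 (limma adjusted p = 0.03242). LAT KO against WT at 4 weeks called no gene of any of these lists. The part of these cells in the Th2 gene results was not tested.

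The named genes outside the set that most resembled each member were found by the Pearson correlation of scaled log2 signal over the arrays with both values (16 to 18), which the group differences and shared array effects enter. For Gata3 they were Epas1, Csf1 and Mid1ip1 with r of 0.96, 0.95 and 0.95. For Nfil3 they were Ptpn3, Csf1 and Itgb1 with r of 0.97, 0.96 and 0.955. For Il1rl1 they were Rnf128, Pros1 and Pbx3 with r of 0.99, 0.97 and 0.97. The pattern of Maf was nearest to Ccr8, Zbtb32 and Rgs16, with r of 0.95, 0.94 and 0.93. That of Areg was nearest to Vdr, Cysltr1 and Gadd45g, each with r of 0.93. For Ccr4 these were Niban1, Mdfic and Arnt2 with r of 0.96, 0.95 and 0.95, and for Il4ra Adprh, Arpc4 and Alad with r of 0.97, 0.97 and 0.96. For Il4 they were Depdc1b, Cyb561 and Cygb with r of 0.96, 0.94 and 0.94. Il5 was nearest to Mcpt4, a mast cell protease gene, and to Zfp711 and Cma2, with r of 0.94, 0.93 and 0.92, and Il13 to Ccl24, Slc30a3 and Sult2b1, with r of 0.90, 0.87 and 0.86. Csf1 was shared by Gata3 and Nfil3.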

How the data were processed

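Single-colour Agilent Mouse GE 4x44k arrays, 1 per mouse, were read. The deposited scanner tables hold spot intensity values made with Agilent Feature Extraction 10.5.1.1 per the file headers, background-subtracted and not scaled between arrays, with probes placed on build mm9. The submitters' processing notes name Agilent Feature Extraction 10.5 and limma. The deposited value table of the series holds log2 values with column medians of 8.5581 to 8.5703, and the authors' steps for it beyond those tools were not given in the sources used here.

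Here log2 of the processed signal minus log2 of each array's 75th percentile over 43379 non-control spots was used. Outlier spots were left out, spots of a probe were averaged, and probes well above background on at least 3 arrays were kept. Names came from RefSeq accessions: 24844 of 41174 probes had one (17178 genes) and 16330 did not. A gene was read from its brightest probe, which left 31622 features, 17061 of them named. Limma 3.58.1 in R 4.3.3 fitted a mean for each of 6 groups over all 18 arrays with a trended prior, and p-values were two-sided and Benjamini-Hochberg adjusted over all features at 0.05 within each of 11 comparisons. The fit left 12 residual degrees of freedom, with a median prior of 5.46. The number of arrays limits the precision. The script was tested on simulated data.

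The 10 genes and the gene lists were chosen with earlier results of these data known. All 10 are named in the text. Of the other lists, genes past the threshold against WT or between the mutants were to be named, up to 10 in each direction, as were Lat and the 3 named genes with the highest Pearson r with each of the 10 over at least 15 arrays. Jak1, Cd44, Mcpt8, Cma1, Prg2, Fcer1a, Xist and Ddx3y were named after their values were seen. Some list members that the rule names are not reported here. Several naive, antigen-experienced and other T helper genes are also expressed by the cells sorted.

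Replicate numbers do not pair mice: over 45 same-numbered pairs of arrays the correlation of deviations from the group means had a median of -0.05 (-0.61 to 0.52), and 15 pairs exceeded 0.1. Alternatives were quantile scaling, normexp background correction on the median spot signal with an offset of 50, the deposited value table, other filters and probe rules, outlier spots kept, array weights, the compared arrays only, labelled sex, slide and replicate number as terms, and leaving out each array. RefSeq promoter windows (GRCm38.p6) gave the sequences. No coordinates of the arrays' build are given.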

Additional observations from a re-analysis of the deposited data

Results flagged for a closer look

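For 5 of the Th2 genes the mutant genotypes differed from each other at 4 weeks by a direct test of the difference. LAT KO minus Y136F was -1.1792 for Gata3, -2.1522 for Nfil3, -1.9178 for Areg, -1.6477 for Maf and -2.1854 for Il1rl1 on the log2 scale, lower in all 3 LAT KO mice than in any Y136F mouse for each. By the labels these LAT KO mice were all male and the Y136F mice all female. With labelled sex as a term only Nfil3 stayed called. For 2 genes the Y136F minus WT difference changed with time: it was larger at 4 weeks than at 1 week by 1.9368 for Gata3 and by 2.6987 for Nfil3.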

How the results depend on the processing

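No called difference changed sign under any of 35 settings. Labelled sex as a term left 1 of 10 genes called in Y136F against WT and 1 in LAT KO against Y136F at 4 weeks. It is estimated from few mice, and LAT KO replicate 1 of 1 week among them went against its label. With it 38 features higher and 32 lower remained in Y136F against WT, beside 760 and 260. Keeping outlier spots gave 3 calls in LAT KO against Y136F, with Areg at -1.92 and Il1rl1 at -2.38 (limma adjusted p = 0.07187 and 0.05297). Slide as a fixed term gave 4 calls between the Y136F times. Y136F against WT at 4 weeks had 8 calls with array weights, 6 with the compared arrays only, 6 with quantile scaling, 5 with the deposited value table and 7 without the 2 LAT KO arrays against their labels. Its change with time had 6 calls with array weights, 4 with the compared arrays only and 4 without those 2 arrays. Array weights gave 1 call, Maf, in LAT KO against WT at 4 weeks. Array weights gave 1992 features higher and 2763 lower in Y136F against WT, and 5037 and 3281 between the Y136F times, beside 1329 and 1070. Apart from labelled sex and, between the Y136F times, quantile scaling, counts over all features are not given for the other settings. Whether calls of the 10 genes rose there with those over all features is not shown. Leaving out 1 array gave 3 to 6 calls in Y136F against WT and 3 to 6 in LAT KO against Y136F at 4 weeks, 6 to 9 between the Y136F times, 2 to 4 in the change with time and 0 elsewhere. In LAT KO against Y136F Il4 was called under 6 settings, array weights, normexp, the compared arrays only, quantile scaling, the deposited value table and without WT replicate 1 of 1 week (limma adjusted p between 0.004439 and 0.04017), and Il5 under array weights, quantile scaling and the deposited value table (0.005357 to 0.01142). Quantile scaling placed the median of all features at -0.05 in Y136F against WT, beside -0.19, and split the calls between the Y136F times into 1166 higher and 1257 lower. With the replicate number as a block 3, 5, 8 and 2 genes were called in Y136F against WT, LAT KO against Y136F, between the Y136F times and in the change with time, and 0 elsewhere, as without it. The cause of these shifts was not tested. Gata3 stayed called in Y136F against WT under all 34 settings that gave a value, and Nfil3 and Areg under 33. Il5 lies near background, which limits what its values show.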
